A study of Mus musculus with 22 samples.

Results

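Genes that mark neutrophils, or that draw and activate them, were followed in bulk RNA from mouse mammary tissue, taken shortly after mammary cancer cells had been engrafted. They were the 10 rows of the deposited tables with the symbols S100a8, S100a9, Csf3r, Cxcr2, Ly6g, Retnlg, Cxcl1, Cxcl2, Cxcl5 and Il1b, found by name among 52526 gene symbols. The 22 samples came from female C57BL/6J mice of 7 to 8 weeks, 1 tissue sample per mouse. In a design that crossed activity with liposome, 6 mice had a running wheel and PBS liposomes (PBS wheel), 6 had only the hub of the wheel and PBS liposomes (PBS control), 5 had a wheel and clodronate liposomes (clodronate wheel) and 5 had the hub and clodronate liposomes (clodronate control). All 22 mice shared 2 weeks with the wheel or hub, liposomes given intravenously 24 h before engraftment and again at engraftment, and 100000 EO771 cells carrying firefly luciferase placed in the left 4th mammary fat pad, with tissue taken 24 h later. EO771 is a mammary cancer line of C57BL/6 mice, and clodronate liposomes are used to deplete phagocytes. No group lacked cancer cells or liposomes, so a level before either is not analysed here, and host cells and cancer cells were measured together.

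Neutrophils are short-lived granulocytes that leave the blood within hours of tissue injury. CXCL1, CXCL2 and CXCL5 are chemokines that act on the receptor CXCR2 on neutrophils, G-CSF acts on the receptor encoded by Csf3r to drive their production, and interleukin-1β, encoded by Il1b, is an inflammatory cytokine that induces these chemokines. S100A8 and S100A9 form calprotectin, which fills the cytoplasm of neutrophils and is also made by inflamed keratinocytes. Ly6g encodes the surface protein by which mouse neutrophils are usually recognised, and Retnlg encodes a resistin-like protein of neutrophils.

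The deposited value of a gene is its CPM, the share of all reads of the library on a parts-per-1000000 scale, and every value below 1 CPM had been raised to 1, here called the floor. With 13256467 to 20484578 reads per mouse (median 16293026), the floor hid up to 13 to 20 reads of a gene, depending on the mouse, and 73.4% to 76.0% of symbols stood at the floor in a mouse. In a bulk sample, fewer cells of a type and less RNA per cell cannot be told apart. Adipocyte markers were high in every mouse, with Cfd (adipsin) at 2827 to 14030 CPM, and the epithelial gene Krt18 ranged from 34.9 to 213 CPM, while the milk protein genes Csn2 and Wap were at the floor in all 22 mice. All 12 lymphocyte markers were above the floor in 5 mice (PBS control 2, PBS wheel 3 and clodronate wheel 3, 4 and 5), whose summed lymphocyte CPM was 265 to 797, against 12.0 to 19.2 in the other 17 mice.

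The promoters of S100a8 and S100a9 are shown because these neighbours on chromosome 3, the calprotectin pair, were the members most often detected. Those of Cxcl1 and Cxcl2 are shown because these neighbours on chromosome 5 share paired motif matches close to their start sites. RefSeq promoter entries (mouse GRCm38.p6, 250 bases before to 50 bases after the start of the gene, sequence of the gene's own strand) were matched by symbol for 9 of the 10 members, not for Cxcl5. Capitals mark matches to a C/EBP-type motif (TTNCNNNAA, or TTNNNGNAA on the other strand) or to a kB-type motif (GGNNNTTCC, or GGAANNNCC on the other strand), where N is any base. C/EBP and NF-kB are transcription factors of myeloid cells and of inflammation.
S100a8, chr3:90668821-90669120, plus strand: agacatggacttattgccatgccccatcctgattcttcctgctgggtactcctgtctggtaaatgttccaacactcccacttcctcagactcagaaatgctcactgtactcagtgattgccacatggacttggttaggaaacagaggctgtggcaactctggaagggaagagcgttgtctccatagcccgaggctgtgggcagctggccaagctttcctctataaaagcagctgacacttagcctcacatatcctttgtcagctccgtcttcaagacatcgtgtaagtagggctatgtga
S100a9, chr3:90695672-90695971, minus strand: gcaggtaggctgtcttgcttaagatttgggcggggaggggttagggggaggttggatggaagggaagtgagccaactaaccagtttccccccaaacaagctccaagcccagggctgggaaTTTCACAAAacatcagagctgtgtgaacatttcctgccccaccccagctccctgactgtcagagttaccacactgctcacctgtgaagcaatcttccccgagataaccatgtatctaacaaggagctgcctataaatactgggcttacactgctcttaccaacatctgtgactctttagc
Cxcl1, chr5:90890995-90891294, plus strand: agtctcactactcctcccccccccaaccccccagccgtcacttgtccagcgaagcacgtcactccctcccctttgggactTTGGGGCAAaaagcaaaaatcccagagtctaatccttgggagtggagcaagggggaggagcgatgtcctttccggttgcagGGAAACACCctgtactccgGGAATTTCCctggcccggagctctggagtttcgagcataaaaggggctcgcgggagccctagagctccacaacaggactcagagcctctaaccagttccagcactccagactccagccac
Cxcl2, chr5:90903649-90903948, plus strand: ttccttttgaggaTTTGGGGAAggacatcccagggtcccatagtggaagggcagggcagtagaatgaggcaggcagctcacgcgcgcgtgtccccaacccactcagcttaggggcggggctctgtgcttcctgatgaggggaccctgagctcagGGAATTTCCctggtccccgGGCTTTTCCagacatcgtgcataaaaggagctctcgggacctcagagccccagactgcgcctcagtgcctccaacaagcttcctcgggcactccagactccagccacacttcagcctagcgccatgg

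The Cxcl1 promoter held 2 kB-type matches, which begin 89 and 70 bases before the start, and the Cxcl2 promoter held 2 that begin 96 and 77 bases before it. S100a9 held a C/EBP-type match that begins 130 bases before the start, and S100a8 held neither motif. Of 32851 mouse promoters of the same length, 36.6% held the C/EBP-type motif and 18.5% the kB-type motif on either strand, so single matches of these short motifs are common. The letters TATAAA, a core promoter element, were present in 13.6% of promoters, S100a8 and S100a9 among them. These matches describe the sequence and were not tied to any value below.

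Across the 22 mice the 10 members were above the floor in 55 of 220 values. That is near the share over all symbols, of which 73.4% to 76.0% stood at the floor in a mouse. S100a8 was above it in 15 mice, S100a9 in 11, Il1b in 8, Retnlg in 7, Cxcl1 in 6, Cxcr2 in 4, Cxcl2 in 2, Csf3r and Cxcl5 in 1 each, and Ly6g in none of 22. By group, 19 of 60 member values were above the floor in PBS control mice, 9 of 60 in PBS wheel mice, 14 of 50 in clodronate control mice and 13 of 50 in clodronate wheel mice. The median share of all symbols at the floor was 74.1%, 75.0%, 74.9% and 74.1% in these groups in turn. No value of a member exceeded 8.86 CPM, which was S100a8 in clodronate control 3, from 127 reads (95% Poisson interval 7.38 to 10.54 CPM, counting error only). PBS wheel 2 had no member above the floor, and clodronate control 3 had 6 of the 10, more than any other mouse. The map of member values by mouse shows this scatter.

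**Figure D1:**
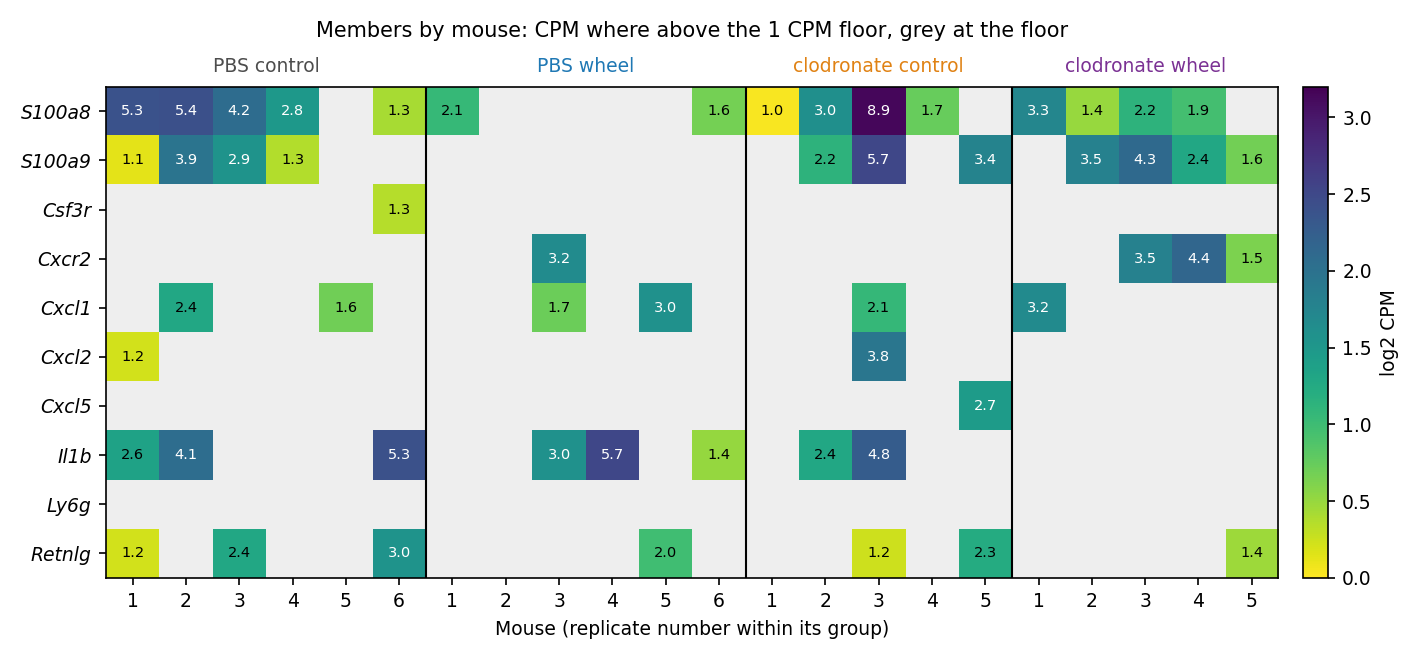
CPM of the 10 members (rows) in the 22 mice (columns, by group and replicate number), coloured by log2 CPM with the CPM printed in each cell; grey cells are at the 1 CPM floor. S100a8 and S100a9 have the most coloured cells (15 and 11), the PBS wheel row of S100a9 is all grey, Ly6g is grey throughout, and clodronate control 3 has 6 coloured cells.

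Other genes of neutrophils, from lists chosen by name, divided in the same mice. Of 12 granule and maturation genes, Mpo, Ctsg and Camp, which encode myeloperoxidase, cathepsin G and cathelicidin, were at the floor in all 22 mice, and Ngp, Padi4, Mmp8 and Chil3 were above it in 1, 1, 2 and 4 mice. Elane, neutrophil elastase, was above the floor in 8 mice and never over 3.39 CPM. The 3 granule genes with the highest mean, Ltf (lactoferrin, 53.1 ± 27.0 CPM, SD, n = 22), Lcn2 (lipocalin 2, 40.6 ± 21.0 CPM, SD, n = 22) and Prtn3 (proteinase 3, 6.65 ± 2.78 CPM, SD, n = 22), were above the floor in every mouse. Mammary epithelium also makes lactoferrin and lipocalin 2. Of 16 surface and activation genes, Fpr1, Stfa2l1 and Cd177 were at the floor in every mouse. Lrg1 (mean 125 CPM) and Wfdc21 (82.1 CPM) had the highest means. Itgam, which encodes CD11b of neutrophils, monocytes and macrophages, was also above the floor in every mouse (7.41 to 36.3 CPM). Genes of neutrophils thus ranged from Prtn3 and Itgam, above the floor in all 22 mice, to Ly6g, Mpo, Camp and Cd177, which gave no value above 1 CPM in any mouse. The 10 members are therefore described gene by gene and not as a neutrophil level.

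**Figure D2:**
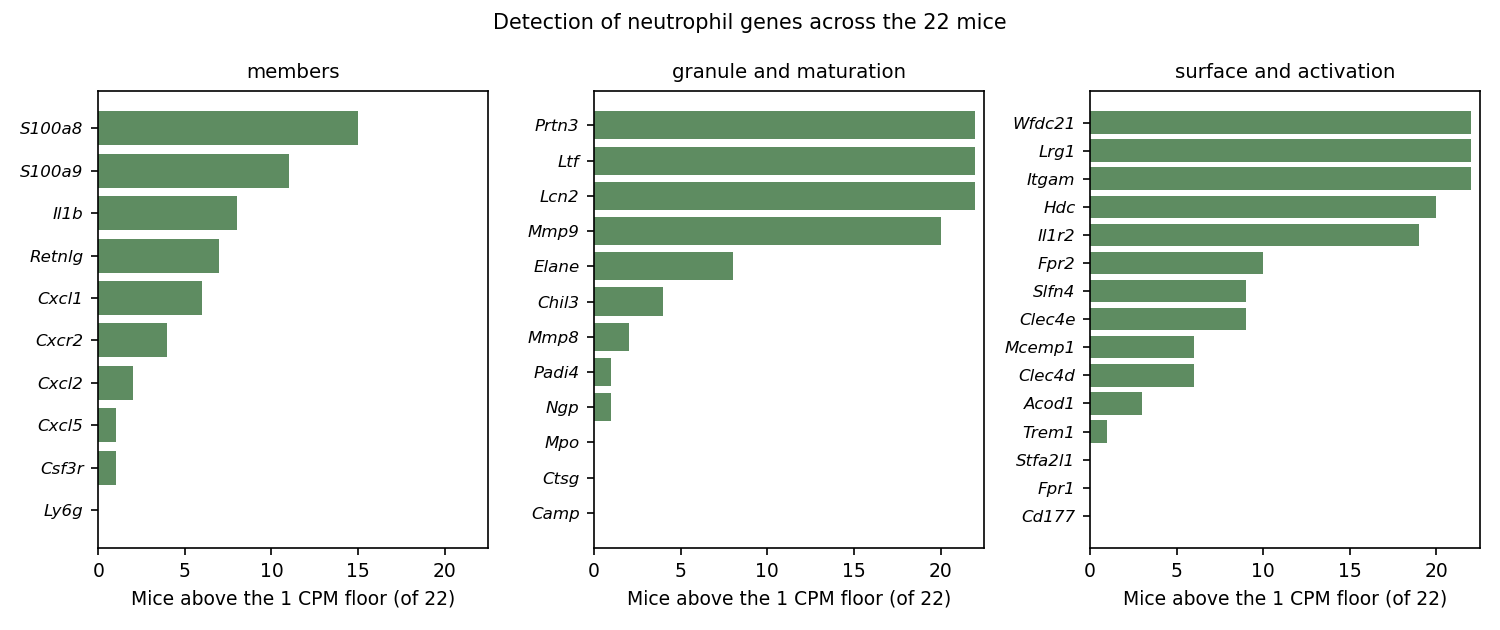
Bars give the number of mice, of 22, in which each gene was above the 1 CPM floor, for the 10 members (left), 12 granule and maturation genes (middle) and 15 of the 16 surface and activation genes (right). Prtn3, Ltf, Lcn2, Wfdc21, Lrg1 and Itgam reach 22, whereas Ly6g, Mpo, Ctsg, Camp, Stfa2l1, Fpr1 and Cd177 have no bar.

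Whether activity or liposome moved the members was tested with limma on log2(CPM + 1) over 15138 genes, those that 5 or more mice had above the floor, with Benjamini-Hochberg adjustment over all of them. S100a8, S100a9, Il1b, Retnlg and Cxcl1 passed that filter, and Csf3r, Cxcr2, Cxcl2, Cxcl5 and Ly6g did not and have no test. No tested member passed an adjusted p of 0.05 in any of the 4 comparisons, and 2 of the 20 member tests had an unadjusted p under 0.05. Beside those member counts, the share of all tested genes past the adjusted threshold was 0% for wheel against control with PBS liposomes (0 genes), 0.00661% with clodronate liposomes (1 gene), 0.205% for clodronate against PBS liposomes averaged over activity (31 genes, all lower) and 0% for the interaction (0 genes). At an unadjusted limma p under 0.05 the shares were 4.91% (744 genes), 10.4% (1579 genes), 10.4% (1579 genes) and 7.58% (1147 genes). Differences below are in log2(CPM + 1), a scale that understates changes in genes near the floor.

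S100a8, at chr3:90669071-90670034, had its highest median in PBS control mice. Its CPM there ran from 1.00 to 5.36 (median 3.50, 5 of 6 mice above the floor), and in PBS wheel mice from 1.00 to 2.08 (median 1.00, 2 of 6 above the floor). The groups overlapped, but 4 of the 6 PBS control mice stood above every PBS wheel mouse. The difference, wheel minus control, was -0.81 (SE 0.35, 95% limma interval -1.53 to -0.09, n = 6 and 6), with a limma p of 0.029, an adjusted p of 0.99 and an exact two-sided permutation p of 0.041. Without PBS control 1, 2 or 3 in turn the difference was -0.67, -0.67 and -0.73, with limma p of 0.074, 0.075 and 0.060.

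In clodronate control mice 1 to 5, S100a8 stood at 1.03, 3.05, 8.86, 1.67 and 1.00 CPM, and in clodronate wheel mice 1 to 5 at 3.31, 1.41, 2.19, 1.94 and 1.00 CPM. These groups overlapped over most of their range, and clodronate control 3 stood alone at the top. The difference between wheel and control was -0.23 (SE 0.38, 95% interval -1.02 to 0.56, limma adjusted p 0.89). The order of the group medians was PBS control (3.50), clodronate wheel (1.94), clodronate control (1.67) and PBS wheel (1.00), and only values of 1.00 to 2.08 CPM were shared by all 4 groups. Neither the interaction (0.58, SE 0.51, 95% interval -0.49 to 1.64, limma adjusted p 0.85) nor clodronate against PBS (0.07, SE 0.26, 95% interval -0.47 to 0.60, limma adjusted p 0.95) passed the test for S100a8. Without clodronate control 3 the interaction was 0.97 (limma p 0.035, adjusted p 0.65) and the wheel difference with clodronate was 0.16.

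S100a9, at chr3:90692630-90695721, encodes the partner of S100A8 and was at the floor in all 6 PBS wheel mice. In PBS control mice it ran from 1.00 to 3.90 CPM (median 1.19), with 4 of 6 above the floor. Both groups held mice at the floor, and the difference was -0.42 (SE 0.29, 95% interval -1.03 to 0.19, limma adjusted p 0.99, exact permutation p 0.061). In clodronate control mice 1 to 5 it stood at 1.00, 2.19, 5.72, 1.00 and 3.39 CPM. In clodronate wheel mice 1 to 5 it stood at 1.00, 3.45, 4.31, 2.43 and 1.60 CPM, a range that lay inside that of the clodronate control mice. The wheel difference with clodronate was 0.03 (SE 0.32, 95% interval -0.63 to 0.70, limma adjusted p 0.99), and the interaction was 0.45 (SE 0.44, 95% interval -0.45 to 1.36, limma adjusted p 0.87).

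Over both activities, S100a9 was above the floor in 7 of 10 clodronate mice (median 2.31 CPM) and in 4 of 12 PBS mice (median 1.00 CPM). The difference, clodronate minus PBS, was 0.52 (SE 0.22, 95% interval 0.07 to 0.97), with a limma p of 0.026, an adjusted p of 0.39 and a permutation p of 0.037 over 100000 permutations of liposome within activity. Without clodronate control 3 the difference was 0.39 (limma p 0.067, adjusted p 0.62), and without clodronate control 5, clodronate wheel 2 or clodronate wheel 3 it was 0.46, 0.47 and 0.43 (limma p 0.052, 0.050 and 0.060). With a covariate it was 0.33 for the adipocyte score (limma p 0.18), 0.42 for the lymphocyte score (p 0.065) and 0.41 for the keratinocyte score (p 0.052). Those markers also differed between liposomes (medians -0.50, 0.87 and 1.07 in turn), so these values compare mice at an equal score. The same comparison gave 1579 genes an unadjusted p under 0.05, so that S100a9 was 1 of many.

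**Figure D3:**
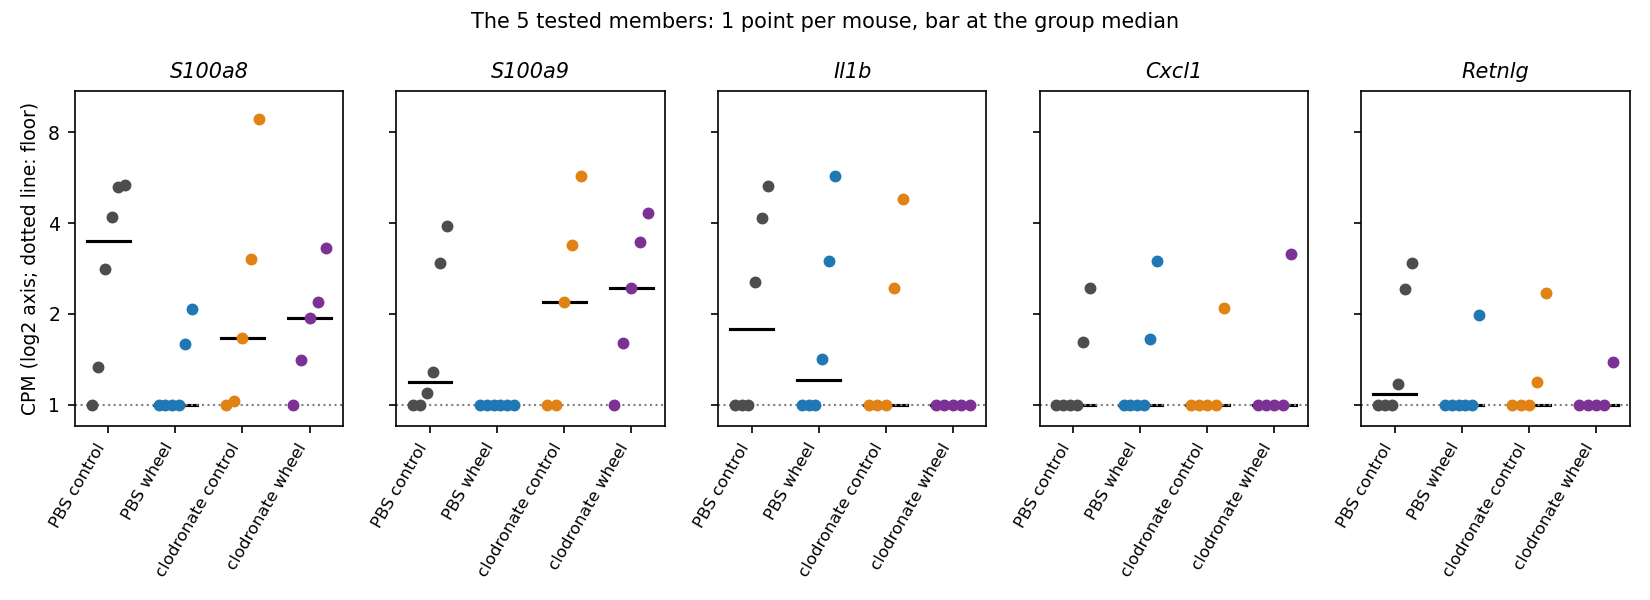
CPM on a log2 axis for the 5 tested members, 1 point per mouse, in the 4 groups; black bars are group medians and the dotted line is the 1 CPM floor. The points overlap between groups for every gene, with S100a9 at the floor in all PBS wheel mice and Il1b at the floor in all clodronate wheel mice.

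S100a8 and S100a9 were both above the floor in 9 mice and both at it in 5. Their Pearson r over the 22 mice was 0.52 (permutation p 0.012, 0.071 after Benjamini-Hochberg adjustment over the 6 pairs tested) and Spearman rho was 0.51 (permutation p 0.018, adjusted 0.11). On deviations from group means r was 0.51. Without the 2 mice farthest from the median of S100a8, clodronate control 3 and PBS control 2, r was 0.19 (permutation p 0.43). These mice were chosen by their S100a8, so leaving them out also narrows its range. Whether the relation rests on them was not tested. S100a8 and Il1b gave r of 0.33 (permutation p 0.14, adjusted 0.36) and rho of 0.19 (permutation p 0.39, adjusted 1.00), and -0.05 without the same 2 mice. S100a8 and Retnlg gave r of -0.09 (permutation p 0.71, adjusted 0.95) and rho of -0.03 (permutation p 0.89, adjusted 1.00). The other 3 pairs, Cxcl1 with Cxcl2, Cxcl1 with Cxcl5 and Cxcr2 with Csf3r, shared at most 1 mouse with both genes above the floor, and their r of 0.26, -0.12 and -0.09 had adjusted permutation p of 0.36, 0.95 and 0.95.

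Keratinocyte markers were high in some of the mice with calprotectin signal and in some without it. All 5 of Krt5, Krt14, Krt1, Krt10 and Lor were above the floor in every mouse and Ivl in 12, and their summed CPM ran from 74.1 to 2859 in PBS control, 68.0 to 5639 in PBS wheel, 101 to 10965 in clodronate control and 86.2 to 4694 in clodronate wheel mice. Clodronate control 3, the mouse with the highest S100a8 and S100a9, also had the highest sum (10965 CPM, with Krt10 at 4443 CPM). PBS control 1, however, had 5.25 CPM of S100a8 with a sum of 74.1 CPM. PBS wheel 5 and PBS wheel 2 had sums of 5639 and 2922 CPM with S100a8 and S100a9 at the floor. Over the 22 mice of 4 groups, r of the keratinocyte score (mean log2(CPM + 1) of the list) was 0.42 with S100a8 and 0.54 with S100a9, given as a description. Other lists gave r both smaller and larger in size. For S100a8 and S100a9 in turn, r was -0.59 and -0.65 for mammary epithelium and -0.56 and -0.38 for eosinophil and mast cell markers. In the same order it was 0.21 and 0.53 for skeletal muscle and 0.44 and 0.48 for the IL-1 pathway. The neutrophil granule genes gave -0.34 and -0.57. The granule list is led by Ltf and Lcn2, which mammary epithelium also makes. With the keratinocyte score as a covariate, added after the values were seen, the PBS wheel difference of S100a8 was -0.74 (limma p 0.032, adjusted p 0.83).

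The receptor genes among the members gave values in few mice. Csf3r, at chr4:126023441-126044975, stood at 1.28 CPM in PBS control 6 (23 reads) and at the floor in the other 21 mice. Cxcr2, at chr1:74153994-74161246, was at the floor in all PBS control and all clodronate control mice. It was above the floor in PBS wheel 3 (3.15 CPM, 42 reads) and in clodronate wheel 3, 4 and 5 (3.46, 4.43 and 1.54 CPM, from 57, 73 and 29 reads). All 4 of these mice were among the 5 in which every lymphocyte marker was above the floor, and the fifth, PBS control 2, had Cxcr2 at the floor. In the same 4 mice Cd79b, a B cell gene, stood at 46.5, 125, 143 and 79.7 CPM and the T cell gene Cd3e at 15.8, 34.1, 37.8 and 18.1 CPM. Their Csf3r and Ly6g were at the floor, and S100a8 was at 1.00, 2.19, 1.94 and 1.00 CPM. S100a9 was at 1.00, 4.31, 2.43 and 1.60 CPM in the same mice in turn. Retnlg was at 1.39 CPM in clodronate wheel 5 and at the floor in the others. Summed lymphocyte CPM ran from 12.0 to 265 in PBS control, 14.0 to 333 in PBS wheel, 12.0 to 18.4 in clodronate control and 14.2 to 797 in clodronate wheel mice, and its part in the Cxcr2 values was not tested.

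Among the other chemokine receptors, Cxcr1 was at the floor in every mouse, and the 3 highest by mean were Ackr3 (12.0 CPM), Ackr1 (7.72 CPM) and Cxcr4 (6.75 CPM). Of the 6 tested, 0 passed an adjusted limma p of 0.05 in any comparison. With clodronate liposomes, 5 of the 6 had an unadjusted p under 0.05 (10.4% of all genes), 4 of them higher in wheel mice, and the median difference was 1.00 against 0.0045 over all genes. Cxcr4, the receptor of CXCL12, differed by 1.72 (SE 0.63, limma adjusted p 0.30), and Ackr3, a scavenging receptor for CXCL12, by -0.72 (SE 0.33, limma adjusted p 0.45). In that comparison all 12 lymphocyte markers were higher in wheel mice with an unadjusted p under 0.05 (median 2.60), none of them past the adjusted threshold.

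The neutrophil chemokines among the members gave values in single mice. Cxcl1, at chr5:90891245-90893121, was above the floor in PBS control 2 and 5 (2.44 and 1.61 CPM), PBS wheel 3 and 5 (1.65 and 3.00 CPM), clodronate control 3 (2.09 CPM) and clodronate wheel 1 (3.17 CPM). Each group thus had its median at 1.00 CPM, and no group stood apart. The difference between wheel and control mice was 0.04 with PBS (95% interval -0.40 to 0.48, limma adjusted p 1.00) and 0.09 with clodronate (95% interval -0.40 to 0.57, limma adjusted p 0.94), and clodronate minus PBS was -0.05 (95% interval -0.37 to 0.28, limma adjusted p 0.94). The interaction for Cxcl1 was 0.05 (95% interval -0.61 to 0.70, limma adjusted p 0.99), a direction that turned to -0.01 with upper-quartile scaling. Cxcl2, at chr5:90903899-90905938, was above the floor in PBS control 1 (1.17 CPM, 16 reads) and clodronate control 3 (3.84 CPM, 55 reads). Cxcl5, at chr5:90759298-90761625, was above it in clodronate control 5 (2.72 CPM, 36 reads). Of these 3 chemokines, only clodronate control 3 had more than 1 above the floor.

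Of 12 further CXC chemokines, Cxcl3, another ligand of CXCR2, was at the floor in all 22 mice, and Ppbp was above it in 4. The highest by mean were Cxcl12 (79.9 ± 19.8 CPM, SD, n = 22), a stromal chemokine for lymphocytes and progenitors, Cxcl14 (51.7 ± 21.9 CPM) and the interferon-induced Cxcl9 (30.2 CPM), each above the floor in every mouse. Cxcl15, whose product is known to draw neutrophils, was also above the floor in every mouse (17.4 ± 11.1 CPM, highest 37.6). Of the 9 tested, 0 passed an adjusted limma p of 0.05, and their median difference was 0.06 for wheel against control with PBS (-0.08 over all genes), 0.21 with clodronate (0.0045), -0.05 for clodronate against PBS (-0.04) and -0.04 for the interaction (0.09).

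Il1b, at chr2:129364569-129371164, was at the floor in all 5 clodronate wheel mice. In clodronate control mice 1 to 5 it stood at 1.00, 2.44, 4.81, 1.00 and 1.00 CPM. In PBS control mice it ran from 1.00 to 5.29 CPM (median 1.78) and in PBS wheel mice from 1.00 to 5.71 CPM (median 1.21), with 3 of 6 mice above the floor in each. Each group that had any signal therefore split into mice at the floor and mice at 1.42 CPM or more. The wheel difference was -0.14 with PBS (SE 0.34, 95% interval -0.84 to 0.57, limma adjusted p 1.00) and -0.46 with clodronate (SE 0.37, 95% interval -1.24 to 0.31, limma adjusted p 0.75). Clodronate minus PBS was -0.34 (SE 0.25, 95% interval -0.86 to 0.18, limma adjusted p 0.67), with 2 of 10 against 6 of 12 mice above the floor, and the interaction was -0.33 (SE 0.51, 95% interval -1.38 to 0.72, limma adjusted p 0.94). With the adipocyte score as a covariate, clodronate minus PBS was -0.69 (limma p 0.012, adjusted p 0.37) and the wheel difference with clodronate was -0.72 (limma p 0.043, adjusted p 0.47). Adipocyte markers were themselves lower with clodronate than with PBS (median -0.50), so the -0.69 compares mice at an equal score and is not the liposome difference alone. Without clodronate control 3, and with no covariate, the wheel difference with clodronate was -0.20 and the interaction was -0.058.

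The 2 mice with the highest Il1b, PBS wheel 4 and PBS control 6, also held other myeloid genes, named here after their values were seen. Slfn4 stood at 36.3 and 10.0 CPM, Chil3 at 13.6 and 11.7 CPM, the formyl peptide receptor gene Fpr2 at 7.16 and 7.30 CPM, the collagenase gene Mmp8 at 2.32 and 5.13 CPM and the monocyte gene Ly6c2 at 66.9 and 59.8 CPM. No other mouse had Mmp8 above the floor. Of the members, S100a9 was at the floor in PBS wheel 4 and in PBS control 6. S100a8 stood at 1.00 and 1.34 CPM and Retnlg at 1.00 and 2.95 CPM in these mice in turn. Chil3 was also at 11.8 CPM in PBS control 1, with Il1b at 2.55 CPM, and Ly6c2 was highest in clodronate wheel 4 (79.5 CPM). Summed monocyte markers (Ly6c2, Ccr2, Plac8 and Fn1) were 298 and 296 CPM in these mice, within a range over groups of 89.0 to 296 in PBS control, 116 to 298 in PBS wheel, 89.7 to 136 in clodronate control and 86.3 to 297 in clodronate wheel mice. Clodronate wheel 4 had a monocyte sum of 297 CPM with Il1b at the floor, and clodronate control 3 had Il1b at 4.81 CPM with a sum of 118 CPM. Across the 22 mice r with Il1b was 0.57 for the monocyte score and 0.73 for the score of the 16 neutrophil surface and activation genes, both as descriptions over mice of 4 groups.

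**Figure D4:**
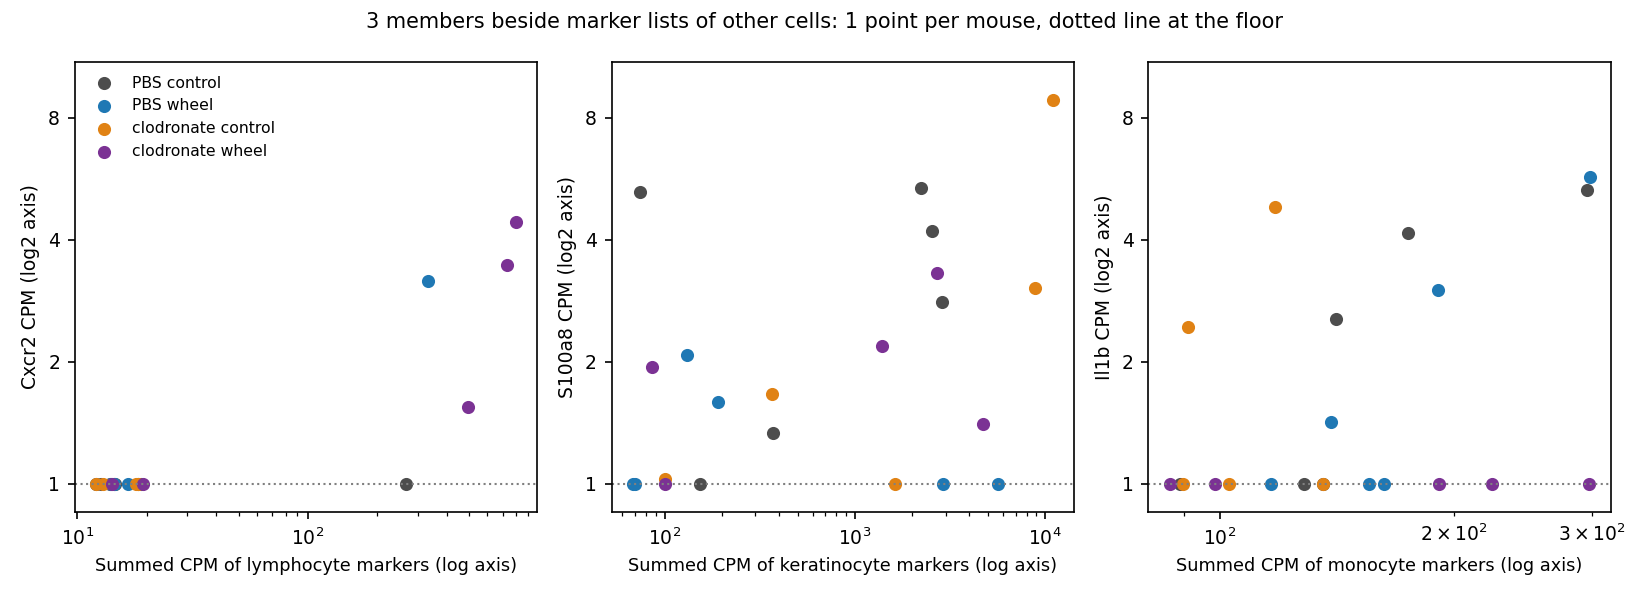
CPM of Cxcr2, S100a8 and Il1b (vertical, log2 axis) against the summed CPM of lymphocyte, keratinocyte and monocyte markers (horizontal, log axis), 1 point per mouse coloured by group, with the 1 CPM floor dotted. Cxcr2 leaves the floor only at lymphocyte sums of 333 CPM or more. S100a8 is highest at the highest keratinocyte sum (10965 CPM), but PBS wheel 5, at 5639 CPM, has it at the floor. The 2 mice with the highest Il1b have monocyte sums of 296 and 298 CPM, and clodronate wheel 4, at 297 CPM, has Il1b at the floor.

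Of 12 other genes of the IL-1 pathway, the adaptor genes Pycard (mean 21.7 CPM) and Myd88 (20.5 CPM) and the kinase gene Irak4 (14.8 CPM) were the highest. Il1a, the other interleukin-1 ligand, was above the floor in 7 mice, the gene of the receptor antagonist, Il1rn, in 19 and the inflammasome sensor Nlrp3 in 1. Of the 11 tested, 0 passed an adjusted limma p of 0.05. Their median difference was -0.12 for wheel against control with PBS (-0.08 over all genes) and 0.35 with clodronate (0.0045 over all genes). Among 10 inducers and NF-kB feedback genes, Csf3 (G-CSF), Il6 and Il17a were at the floor in every mouse, while Nfkbia, which encodes the inhibitor IkBα, ranged from 223 to 570 CPM. Nfkbia differed by 0.40 for clodronate against PBS (SE 0.14, limma p 0.0072, adjusted p 0.25). Nfkbiz (9.54 CPM) and Tnfaip3 (3.67 CPM) were the next highest by mean, and 0 of the 5 tested passed the adjusted limma threshold.

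Retnlg, at chr16:48872608-48874498, was above the floor in PBS control 1, 3 and 6 (1.17, 2.42 and 2.95 CPM), PBS wheel 5 (1.98 CPM), clodronate control 3 and 5 (1.19 and 2.34 CPM) and clodronate wheel 5 (1.39 CPM). Group medians lay between 1.00 and 1.08 CPM and the groups overlapped. The wheel difference was -0.22 with PBS (95% interval -0.59 to 0.16, limma adjusted p 0.99) and -0.12 with clodronate (95% interval -0.53 to 0.29, limma adjusted p 0.89). Clodronate minus PBS was -0.09 (95% interval -0.37 to 0.19, limma adjusted p 0.84), and the interaction was 0.09 (95% interval -0.46 to 0.65, limma adjusted p 0.98). Ly6g, at chr15:75155261-75159128, was at the floor throughout, so each mouse had under 1 CPM for it.

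**Figure D5:**
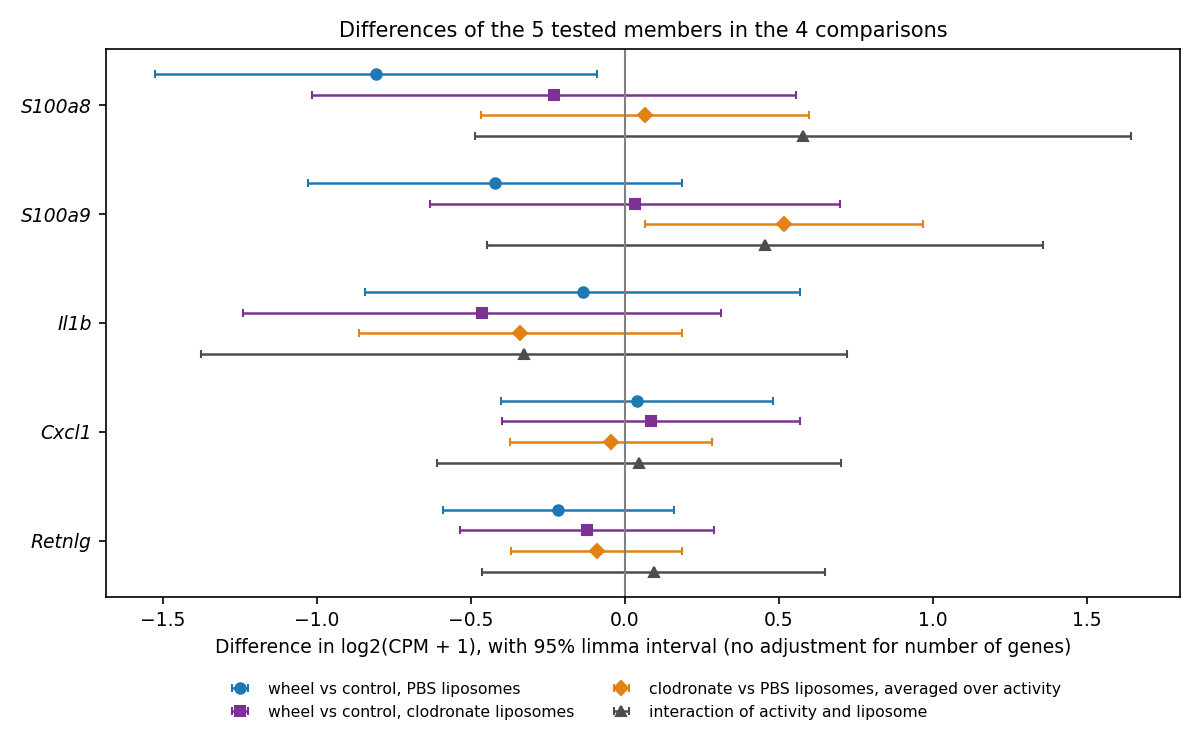
Differences in log2(CPM + 1) of the 5 tested members (rows) in the 4 comparisons (symbols), with 95% limma intervals not adjusted for the number of genes. Only the interval of S100a8 for wheel against control with PBS liposomes (-1.53 to -0.09) and that of S100a9 for clodronate against PBS liposomes (0.07 to 0.97) leave out 0, and neither passed after adjustment over all genes.

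Genes that receive calprotectin or admit leukocytes were mostly above the floor, at levels from near 1 CPM to over those of any member. Of 5 calprotectin receptor genes, Cd36 (mean 527 CPM, also the fatty acid transporter of adipocytes), Cd14 (12.6 CPM) and Tlr4 (5.62 CPM) were above the floor in every mouse. Cd36 differed by -0.42 for clodronate against PBS (SE 0.17, limma p 0.019, adjusted p 0.35). Of 7 leukocyte adhesion genes, Vcam1 (30.1 CPM), Selplg (14.0 CPM) and Icam1 (13.2 CPM) were highest, and E-selectin (Sele), which endothelium makes on activation, was above the floor in 2 mice. None of the 5 calprotectin receptor genes and 6 adhesion genes tested passed the adjusted limma threshold, and Sele had no test. For wheel against control with clodronate liposomes, 3 of 6 tested adhesion genes had an unadjusted limma p under 0.05 (10.4% of all genes), each higher (median of the 6 1.31, against 0.0045 over all genes), with Vcam1 at 1.43 (SE 0.53, adjusted p 0.31) and Selplg at 2.15 (SE 0.68, adjusted p 0.26), in the comparison in which lymphocyte markers also differed.

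The 2 neutrophil lists were compared with the same fit. For wheel against control with PBS, the 5 tested granule genes had a median difference of 0.26 and the 11 tested surface genes -0.04, against -0.08 over all genes. Ltf differed by 1.10 (SE 0.45, limma p 0.022, adjusted p 0.99), opposite in sign to the -0.81 of S100a8. With clodronate the medians were -0.21 and -0.14 (0.0045 over all genes), for clodronate against PBS -0.02 and -0.16 (-0.04), and for the interaction -0.64 and -0.05 (0.09). For wheel against control with clodronate, 2 of the 11 surface genes had an unadjusted limma p under 0.05 (10.4% of all genes), both higher, among them Mcemp1 (0.80, SE 0.26, adjusted p 0.26). No gene of either list passed an adjusted limma p of 0.05 in any comparison.

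Genes whose values followed a member most closely were ranked by Pearson r of deviations from group means over 22 mice, among the 15138 tested genes. Of the 5 highest for each, those for S100a8 included Lss (r = 0.82), AC154634.1 (0.81), Lhpp (0.80) and Ddias (0.78), those for Il1b were Bub1 (0.85), Slfn4 (0.85), Naa25 (0.85), Crmp1 (0.84) and Smg5 (0.83), and those for Cxcl1 were Phf21b (0.85), 1010001B22Rik (0.80), Papd7 (0.79), A130010J15Rik (0.78) and Gm18867 (0.77). Slfn4 was the only gene of the lists above among these 15, and no other member was. Cxcl5, above the floor in 1 mouse, was not ranked. Most of the 22 mice were at the floor for Il1b (8 above it) and Cxcl1 (6 above it), so their r rest on the few mice with signal. S100a8 was above the floor in 15 of 22 mice. The r of all these members are descriptions.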

How the data were processed

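Libraries were 3′ tag sequencing (QuantSeq 3′ FWD) of total RNA, 1 per mouse. STAR 2.5.3a and GRCm38 are named in the submitters' processing notes. The authors deposited a signal per gene, in CPM of all reads, in which every value below 1 had been set to 1. Above this floor all values up to 200 CPM were whole multiples of 1 read (tolerance 0.1 read), which gave the depth, and a 3′ tag count is not divided by gene length. Reads at the floor are lost, so count tests were not used. Rows of unassigned reads (4) were left out, and 106 repeated symbols kept their highest row by mean.

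Groups and replicate numbers came from the sample labels. Genes above the floor in at least 5 of 22 mice entered a limma fit (version 3.58.1, R 4.3.3) on log2(CPM + 1), with 4 group means and a variance trend. Single members were also tested by two-sided permutation, exact for wheel against control (924 and 252 regroupings) and with 100000 permutations otherwise. The members, the 18 gene lists and the rule for named genes (all members, the 3 highest genes of each list, genes past the threshold, and the 5 genes most like S100a8, Cxcl1, Cxcl5 and Il1b) were chosen with earlier results of these data known. Promoters were taken from RefSeq, and scripts ran in Python 3.11.15. Alternatives were other pseudocounts, filters and scalings, no variance trend, only the groups compared, the replicate number as a block, marker scores as covariates, and leaving out each mouse. A gene of the lists and one ranked by likeness are not reported here. Nothing states whether mice of 1 group shared a cage or day.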

Additional observations from a re-analysis of the deposited data

Results flagged for a closer look

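In 10 of the 24 combinations of member and group that had any spread, 1 mouse stood farther from the rest of its group than Dixon's 95% limit allows. Chance flags about 1 in 20 groups, or 1.2 of 24, and in 9 of the 10 every other mouse of the group was at the floor, which makes the limit easy to pass. Csf3r was flagged in PBS control 6 (1.282 CPM), Cxcr2 in PBS wheel 3 (3.155 CPM) and Cxcl5 in clodronate control 5 (2.716 CPM). Cxcl1 was flagged in clodronate control 3 (2.093 CPM) and clodronate wheel 1 (3.168 CPM), and Cxcl2 in PBS control 1 (1.168 CPM) and clodronate control 3 (3.836 CPM). Retnlg was flagged in PBS wheel 5 (1.979 CPM), clodronate wheel 5 (1.385 CPM) and clodronate control 5 (2.338 CPM), where the other 4 mice reached up to 1.186 CPM. Clodronate control 3 appears for both Cxcl1 and Cxcl2, and PBS wheel 3 is one of the mice rich in lymphocyte markers.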

How the results depend on the processing

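The 1 CPM floor limits every value here, since up to 13 to 20 reads of a gene are hidden in a mouse and 5 of 10 members could not be tested. The planned edgeR and DESeq2 fits were left out, as hidden reads cannot be counted, members did not pass the filters of a value above the floor in every mouse or a mean of 5 CPM, and a fit of 2 groups alone cannot hold the averaged or interaction comparison. No tested member passed an adjusted limma p of 0.05 under any alternative, and 242 of 250 member differences kept their direction with all mice or with the lymphocyte-rich mice left out together. The cause of the exceptions was not tested. The wheel difference of S100a9 with clodronate was -0.0018 with a pseudocount of 5, -0.28 and -0.10 with the lymphocyte and adipocyte scores as covariates, and -0.13 without the 5 lymphocyte-rich mice. Clodronate minus PBS was -0.12 and -0.039 for S100a8 with the adipocyte and keratinocyte scores and 0.19 for Cxcl1 without the 5 lymphocyte-rich mice. The interaction of Cxcl1 was -0.012 with upper-quartile scaling, which moved the median of all genes by -0.10 there. The keratinocyte score and the omission of the 5 mice were added after the data were seen. Without those 5 mice the PBS wheel difference of S100a8 was -0.64 (p 0.14) and that of S100a9 for clodronate against PBS 0.52 (p 0.059).

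With 1 mouse left out, 307 of 330 member differences kept their direction. For wheel against control with PBS they ran from -1.003 to -0.67 for S100a8, -0.51 to -0.25 for S100a9, -0.11 to 0.16 for Cxcl1, -0.39 to 0.065 for Il1b and -0.31 to -0.083 for Retnlg. With clodronate they ran from -0.42 to 0.16 for S100a8, -0.15 to 0.29 for S100a9, -0.13 to 0.21 for Cxcl1, -0.58 to -0.20 for Il1b and -0.17 to 0.019 for Retnlg. Clodronate minus PBS ran from -0.13 to 0.16 for S100a8, 0.39 to 0.61 for S100a9, -0.15 to 0.031 for Cxcl1, -0.47 to -0.22 for Il1b and -0.16 to -0.025 for Retnlg. The interaction ran from 0.39 to 0.97 for S100a8, 0.28 to 0.71 for S100a9, -0.17 to 0.20 for Cxcl1, -0.53 to -0.058 for Il1b and -0.040 to 0.24 for Retnlg. The r of S100a8 with S100a9 fell to 0.19 and that of S100a8 with Il1b to -0.048 without the 2 mice farthest out.

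The 1 gene called for wheel against control with clodronate became 3 with no filter (genes constant in all mice excepted), 12 without the 5 lymphocyte-rich mice, and 0 with a value above the floor in every mouse, a mean of 5 CPM, only the groups compared, or the lymphocyte, adipocyte or keratinocyte score as a covariate. Leaving out 1 mouse gave 0 to 236, the highest without clodronate wheel 2 (236) and clodronate wheel 1 (118). The 31 genes called for clodronate against PBS became 68 with a value above the floor in every mouse, 54 with a mean of 5 CPM, 12 with upper-quartile scaling, 15 with scaling to assigned reads, 20 with no variance trend, and 0 with the adipocyte score or without the 5 lymphocyte-rich mice. Leaving out 1 mouse gave 9 to 146, with 9 without clodronate control 3 and 146 without clodronate control 1. The interaction gave 2 genes with no filter, and it and the PBS comparison gave 0 genes with each mouse left out in turn (0 to 0).

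Nothing states whether mice of the same replicate number belonged together, and the main fit did not pair them. Same-numbered mice deviated together (correlation over 0.1) in 1 of 6 pairs with PBS and 3 of 5 with clodronate, with correlations from -0.25 to 0.11 and from -0.12 to 0.52. With the replicate number as a block, 0 genes were called for wheel against control with clodronate and 11 for clodronate against PBS, and the PBS wheel difference of S100a8 was -0.81 (adjusted p 0.99).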

Other observations

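Resident myeloid genes were detected far more evenly than the neutrophil genes. All 8 macrophage markers were above the floor in every mouse, led by C1qa (67.6 CPM), Csf1r (43.7 CPM) and Mrc1 (36.5 CPM). Their summed CPM had a median of 271 in PBS control, 259 in PBS wheel, 214 in clodronate control and 268 in clodronate wheel mice. The clodronate wheel group was split, with 142 and 175 CPM in mice 1 and 2. It was 330, 268 and 306 CPM in mice 3, 4 and 5, which were rich in lymphocyte markers. Averaged over activity, all 8 were lower with clodronate than with PBS liposomes (median -0.25, against -0.04 over all genes). Of these, 2 had an unadjusted limma p under 0.05 (10.4% of all genes) and 0 passed the adjusted threshold. The 4 monocyte markers went both ways, with limma differences of -0.49 for Fn1 (SE 0.12, adjusted p 0.084), -0.78 for Ccr2 (SE 0.28, adjusted p 0.28), 0.36 for Plac8 (SE 0.35, adjusted p 0.75) and 0.025 for Ly6c2 (SE 0.78, adjusted p 1.00). Pf4, a chemokine of platelets and tissue macrophages, differed by -0.81 (SE 0.24, adjusted p 0.17).

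Over all 18 lists, 120 of 150 distinct genes were tested and 0 passed an adjusted limma p of 0.05 in any comparison. For wheel against control with PBS, 0 of 6 keratinocyte and 0 of 6 skeletal muscle markers were higher (medians -0.77 and -1.97), and Acta1, a muscle actin, ranged from 5.46 to 6082 CPM over the mice. The medians in that comparison were 0.37 for eosinophil and mast cell, 0.19 for mammary epithelium, -0.08 for adipocyte, 0.21 for platelet and -0.25 for red blood cell markers. For clodronate against PBS, all 8 adipocyte markers were lower (median -0.50, 4 with an unadjusted p under 0.05, against 10.4% of all genes), and medians were 1.07 for keratinocyte and 1.54 for skeletal muscle markers.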
